A study of Mus musculus with 2 samples.

Results

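The cytosolic ribosomal protein genes were chosen by symbol. The set holds every annotated gene named Rpl or Rps with a number and an optional suffix, together with Rplp0, Rplp1, Rplp2 and Rpsa, that has at least 1 transcript annotated as protein-coding. This gave 83 of 55536 annotated genes. Of these, 77 are core members (46 of the 60S and 31 of the 40S subunit) and 6 are second copies with a coding sequence of their own, here called paralogs: Rpl3l, Rpl7l1, Rpl10l, Rpl22l1, Rpl39l and Rps27l. The core members lie on 19 chromosomes, and 4 of them, Rps4x, Rpl39, Rpl10 and Rpl36a, are on the X chromosome. Another 6 symbols that match, Rpl32l, Rpl6l, Rps12l1, Rps3a2, Rps3a3 and Rps4l, have no protein-coding transcript in the annotation and were left out. Some ribosomal proteins are encoded by genes with other symbols, and of these Fau and Rack1 are given separately.

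Cytosolic ribosomal proteins are the protein part of the ribosome, and each of their genes is needed wherever a cell makes protein. The small (40S) subunit reads the messenger RNA and its proteins carry the prefix Rps, while the large (60S) subunit forms the peptide bond and its proteins carry the prefix Rpl. Most of these proteins are present once in each ribosome, apart from the acidic stalk proteins Rplp1 and Rplp2. Their messenger RNAs begin with a run of pyrimidines (a terminal oligopyrimidine tract) through which the mTOR pathway controls their translation. Many of the genes have processed pseudogenes, intronless copies of the messenger RNA that were inserted elsewhere in the genome, and several carry small nucleolar RNA (snoRNA) genes in their introns.

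Total RNA was sequenced from the adrenal gland of male mice aged 25 days. The mice were B6CASTF1/J, the first-generation cross of the laboratory strain C57BL/6J with the wild-derived strain CAST/EiJ. Both libraries were made from 300 ng of RNA with a directional kit after ribosomal RNA had been reduced, with synthetic ERCC spike-in RNAs added. They form 1 untreated group, replicates 1 and 2, so differences between them are differences between libraries and not between conditions. The tissue labels name a different animal for each library, whereas the library labels name the same animal for both and the donor label is shared, so whether the pair are 2 mice is not settled.

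The deposited gene tables held 35283841 expected counts (read counts shared out among transcripts by a model) in replicate 1 and 35156690 in replicate 2. Adrenal cortex markers were abundant in both libraries: the summed level of 6 steroidogenic genes, all above 0, was 12248 and 6742 TPM, a transcript's reads per base as a share of the library. The libraries also differed in other tissues. Summed TPM of 6 liver markers was 25.8 in replicate 1 and 18358 in replicate 2, which is 1.84% of all TPM there, and that of 6 skeletal muscle markers was 1196 and 1.81. No marker of either list was at 0 in either library. Summed TPM was 1602 and 1088 for 6 chromaffin markers, 5710 and 3722 for 6 erythroid markers, 1163 and 765.7 for 3 brown adipocyte markers and 1399 and 1025 for 3 white adipocyte markers, with none at 0. These differences in tissue makeup go with every comparison of the 2 libraries below, and their part in those comparisons was not tested. In bulk tissue, fewer cells of a type and less RNA per cell cannot be told apart.

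Runs of pyrimidines were looked for near the start of these genes. RefSeq promoter windows (GRCm38.p6, the build also called mm10) were found for 57 of the 77 core members, as 67 windows because some genes have several starts. The 40 bases around the start, 20 before and 20 after, are shown for the 5 core members whose longest pyrimidine runs lie in that stretch, since the tract is the feature the family is known for. Each is printed along the transcribed strand, 5′ to 3′, and capitals mark the longest unbroken run of C and T. A run can lie mostly before the annotated start, as in Rpl34, so it is not shown to be the tract of the messenger RNA. The positions are chr2:26910787-26910826 (Rpl7a, plus strand), chr7:109519175-109519214 (Rpl27a, plus), chr3:130730318-130730357 (Rpl34, minus), chr2:39005112-39005151 (Rpl35, minus) and chr14:18270967-18271006 (Rpl15, minus).
Rpl7a: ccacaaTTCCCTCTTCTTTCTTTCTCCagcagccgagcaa
Rpl27a: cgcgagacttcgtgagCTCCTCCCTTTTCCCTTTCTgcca
Rpl34: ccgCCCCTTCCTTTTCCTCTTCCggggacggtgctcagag
Rpl35: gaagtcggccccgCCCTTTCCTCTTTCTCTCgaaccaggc
Rpl15: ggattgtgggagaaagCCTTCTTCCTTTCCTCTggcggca

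Over all core windows, 34 of 67 (50.7%) had a pyrimidine run of at least 8 bases within 30 bases of the start on the transcribed strand, against 22.9% of all 32851 RefSeq windows. The median longest run was 8 bases in core windows and 5 in all windows, and the longest core run, in Rpl7a, was 21 bases. Short motifs were counted on both strands over the whole 300 bases. The core of ETS-factor sites, CCGGAAG, was in 25 core windows (37.3%) against 8.86% of all windows, and the core of YY1 sites, AAGATGGC, in 7 (10.4%) against 2.75%. The GC box GGGCGG was in 41 (61.2%) against 35.7%. TATAAA was in 6 core windows (8.96%) against 13.6%. CACGTG was in 8 (11.9%) against 7.15%, and the NRF1 consensus site in 2 (2.99%) against 0.971%. The GC box and the ETS and NRF1 letters are rich in G and C, so base composition is shared among these counts, and a match is a description of the letters.

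The paralogs start differently from one another. Rpl22l1 (chr3:28805488-28805527, plus strand) has a run of 10 pyrimidines and Rps27l (chr9:66946066-66946105, plus) a run of 9, while the first start of Rpl3l (chr17:24727806-24727845, plus) has no run longer than 5. The run of Rps27l lies before the annotated start. These 3 are shown as examples. The starts of Rpl7l1, Rpl10l and Rpl39l and the second starts of Rps27l and Rpl3l are not shown.
Rpl22l1: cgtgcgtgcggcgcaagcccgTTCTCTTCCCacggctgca
Rps27l: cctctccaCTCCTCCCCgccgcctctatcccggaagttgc
Rpl3l: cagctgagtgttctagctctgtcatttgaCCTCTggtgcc

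As a family the ribosomal protein genes were among the abundant messages of the gland. Their summed TPM was 2.19% of the total in replicate 1 and 1.80% in replicate 2, a mean of 2.00% ± 0.271 (SD, n = 2). Much of the TPM in these ribosome-reduced libraries lay outside nuclear protein-coding genes, which held 32.8% and 35.5%; of that part alone, the family held 6.67% and 5.09%. The median core member stood at 276.4 TPM (replicate 1) and 223.9 TPM (replicate 2). The median nuclear protein-coding gene with at least 1 TPM stood at 10.35 and 9.63 TPM. TPM is scaled by transcript length, so levels can be compared between genes within a library.

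The core members were close in level apart from a tail of low ones. In replicate 1 the range was 22.8 to 849.5 TPM and 64 of 77 lay within 2-fold of the core median; in replicate 2 it was 18.4 to 724.4 TPM and 65 of 77 did. The order was nearly the same in both libraries (Spearman's rho 0.987 over 77 genes, which share both libraries and both gene models). Every one of the 77 had a lower TPM in replicate 2 than in replicate 1. Lower values were not particular to this family. With counts scaled by library totals, the median log2 ratio of replicate 2 over replicate 1 was -0.24 over all 19801 genes tested. Over the members tested it was -0.28. The plot of levels by rank shows the flat middle of the family and the fall at its low end.

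**Figure D1:**
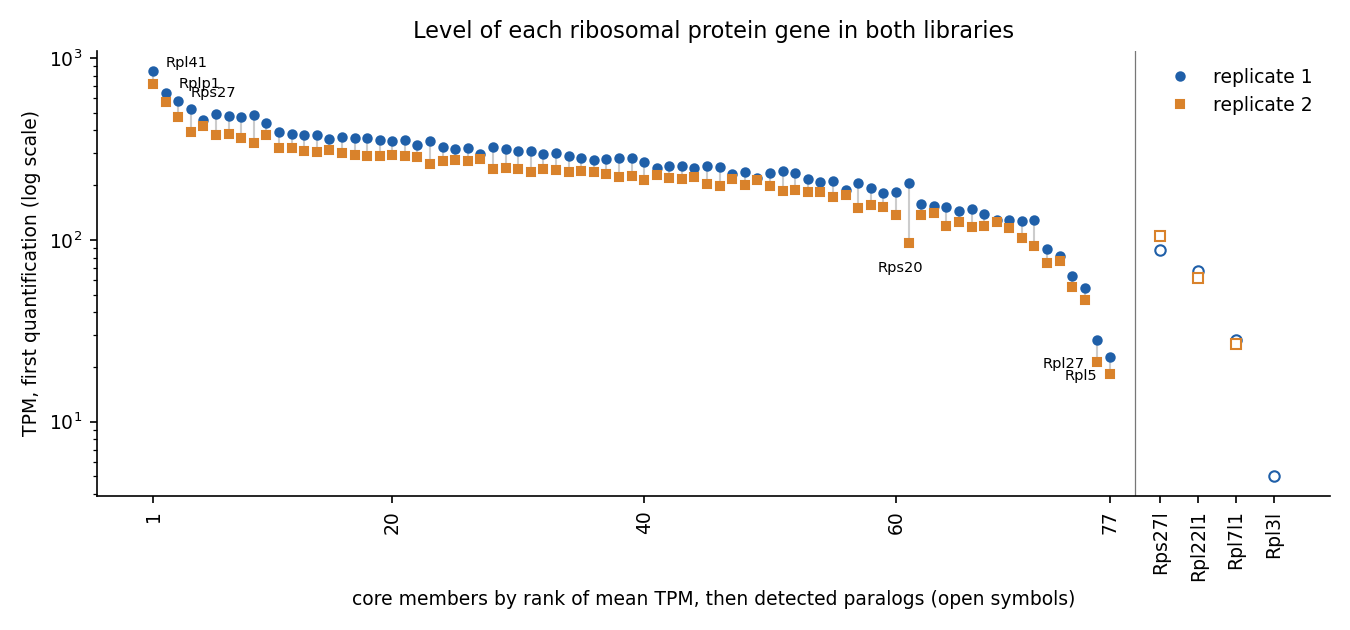
Level of each ribosomal protein gene in TPM on a log scale, first quantification, for replicate 1 (circles) and replicate 2 (squares). The 77 core members are ranked by mean TPM, and 4 detected paralogs follow at the right with open symbols. The ranks run from Rpl41 to Rpl5, Rps20 has the widest gap between the libraries among core members, and Rpl3l has no point for replicate 2, where it was at 0.

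The most abundant member was Rpl41, at 849.5 TPM (replicate 1) and 724.4 TPM (replicate 2). It encodes the smallest protein of the ribosome. Its whole coding sequence, 26 codons with the stop, is shown because it is the top message of the family. It is from the mm10 gene model at chr10:128548114-128549305, minus strand, with the start and stop codons in capitals.
Rpl41: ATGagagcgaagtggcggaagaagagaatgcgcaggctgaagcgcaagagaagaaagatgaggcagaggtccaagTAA

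Among the next highest were Rplp1, Rps27, Rpl23a, Rps29, Rps28, Rpl13a, Rps24 and Rps14. Rplp1, an acidic protein of the stalk that recruits elongation factors, was at 646.1 and 571.05 TPM. Rps27, a zinc-finger protein of the 40S subunit, was at 579.3 and 475.3 TPM. Rpl41, Rplp1 and Rps27 held the first 3 places in this order in each library of the first quantification. Rpl23a, which lies at the exit of the peptide tunnel, was at 527.2 and 390.9 TPM. Rps29, another small zinc-finger protein, was at 454.9 and 423.9 TPM, and Rps28, also of the 40S subunit, at 494.95 and 379.7 TPM. Further neighbours were not separated: Rps29 was below Rps28 in replicate 1 and above it in replicate 2. Rpl13a was at 482.1 and 382.4 TPM, Rps24 at 474.3 and 363.2 TPM. Rps14, a protein of the 40S platform, was at 485.5 and 340.7 TPM. In the second quantification described below, Rps28 was at 1170 and 845.3 TPM, above Rps27 at 910.3 and 699.7 TPM. Rplp1 was lower there, at 659.3 and 563.7 TPM. Below Rpl41, then, the order of the leading genes is not fixed by these data.

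In the first quantification the genes for proteins of 1 ribosomal structure did not have equal levels. In the stalk, the other acidic protein, Rplp2, was at 362.9 and 292.4 TPM, and Rplp0, the base on which the acidic proteins sit, at 250.8 and 198.2 TPM. In the first quantification the RNAs of both acidic proteins were thus above that of their base, but this order did not hold in the second quantification described below. There Rplp0 was at 679.5 and 522.4 TPM, Rplp1 at 659.3 and 563.7 TPM and Rplp2 at 644.6 and 501.5 TPM. Rpl5 and Rpl11 carry the 5S ribosomal RNA into the 60S subunit together. In the first quantification Rpl11 was at 187.1 and 176.5 TPM, whereas Rpl5 was the lowest core member, at 22.8 and 18.4 TPM. With the TPM of near-identical copies added, as described below, Rpl11 was at 318.1 and 273.5 TPM and Rpl5 at 284.1 and 220.1 TPM. The second quantification, without copies, gave 622.7 and 524.2 TPM for Rpl11 and 224.5 and 166.9 TPM for Rpl5. Rplp0, Rplp2 and Rpl11 were chosen for their roles after their values were seen.

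The medians of the subunits were close. The 46 core 60S genes had a median of 252.4 TPM (replicate 1) and 208.0 TPM (replicate 2), and the 31 core 40S genes 290.8 and 237.2 TPM. On the log2(TPM + 1) scale the 60S median minus the 40S median was -0.19, both libraries averaged. In the second quantification described below the same difference was -0.01, so a gap between the subunits was not seen in both.

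The X-linked members ranged from above the core median to the low tail of the family in the first quantification. Rps4x was at 318.1 and 276.4 TPM and Rpl39, at the peptide tunnel, at 192.7 and 156.6 TPM. Rpl10, which joins the 60S subunit late and is needed for its union with the 40S subunit, was at 129.1 and 116.0 TPM, and Rpl36a at 81.5 and 76.2 TPM. The last pair belonged to the 10 lowest core members in the first quantification. In the second, described below, Rpl10 was at 910.4 and 755.5 TPM, above the core median there.

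The 10 lowest core members were Rpl5, Rpl27, Rpl12, Rpl27a, Rpl36a, Rpl21, Rpl37, Rps23, Rpl10 and Rpl29. Rpl27 was at 28.3 and 21.4 TPM, Rpl12, at the stalk base, at 54.7 and 46.7 TPM, and Rpl27a at 63.2 and 55.0 TPM. Rpl21 was at 88.7 and 74.4 TPM. The other members of the tail lay higher and closer to the rest. Rpl37 was at 128.0 and 93.0 TPM, Rps23, a protein of the decoding centre, at 127.8 and 102.8 TPM, and Rpl29 at 127.9 and 126.2 TPM. In both libraries Rpl5 and Rpl27 stood apart from the other 75 core members, with Rpl12 next above them.

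Many members, most of the low tail among them, have near-identical copies elsewhere in the genome. A copy was defined as another annotated gene, away from the member's own locus, with a transcript of which at least 50% of the 31-base words occur in the member's protein-coding transcripts. There were 318 such genes, 302 of them annotated as pseudogenes and 9 as protein-coding. At least 1 copy was found for 70 of the 83 members; the median was 3 copies and the most was 19, for Rpl21. Reads from such words cannot be placed at a single gene, so the split of reads between a member and its copies is an estimate. The copies held 0.731% of all TPM in replicate 1 and 0.602% in replicate 2, and 96 of them had at least 1 TPM in both libraries.

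Several copies were listed at levels of a core member. Gm15500, a copy of Rpl5 on chr7:114705217-114706235 all of whose words (100%) are in Rpl5 transcripts, was at 261.3 and 201.6 TPM, against 22.8 and 18.4 TPM for Rpl5 itself. Gm7536 on chr3:24333068-24333511, whose words are likewise all in Rpl27a transcripts, was at 261.0 and 225.5 TPM. Gm10275 on chr10:29698746-29699380, whose words are all in Rpl12 transcripts, was at 244.7 and 211.0 TPM. Each of these copies was thus listed above its member in both libraries. Rps23-ps1 (chr3:37714740-37715164) led all copies with 377.2 and 280.1 TPM, and Rpl28-ps1 (chr1:128038569-128038982) followed with 363.75 and 311.8 TPM. Rpl37rt, a transcribed pseudogene that shares 88.3% of its words with Rpl37, was at 344.6 and 272.6 TPM. Copies held more than 50% of the TPM of member and copies together for 15 core members in both libraries: Rpl28, Rps2, Rps12, Rpl7a, Rps7, Rpl35, Rpl10, Rps23, Rpl37, Rpl21, Rpl36a, Rpl27a, Rpl12, Rpl27 and Rpl5. Of the 10 lowest core members, 9 were among these, and Rpl29 was the exception. This share holds the member's own TPM in its denominator, so a low member tends to have a high share by construction. By number of copies the core medians were closer: the mean TPM was at the median 267.6 for 8 members with no copy, 274.5 for 44 with 1 to 4 copies and 215.5 for 25 with 5 or more.

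When the TPM of copies was added to their members, a step chosen after the values were seen, the low tail was no longer there. Rpl5 with its copies stood at 284.1 and 220.1 TPM, Rpl27 at 261.7 and 224.4 TPM, and Rps23 at 507.3 and 383.7 TPM. The lowest sum was 152.2 TPM in replicate 1 (Rpl22, which has no copy) and 106.8 TPM in replicate 2 (Rps20). The highest, for Rpl41, was 881.1 and 754.3 TPM. The SD across the 77 core members of the mean log2(TPM + 1) was 0.887 without and 0.468 with copies. With copies, 74 core members in replicate 1 and 71 in replicate 2 lay within 2-fold of their median. How much RNA the copies themselves make was not tested.

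**Figure D2:**
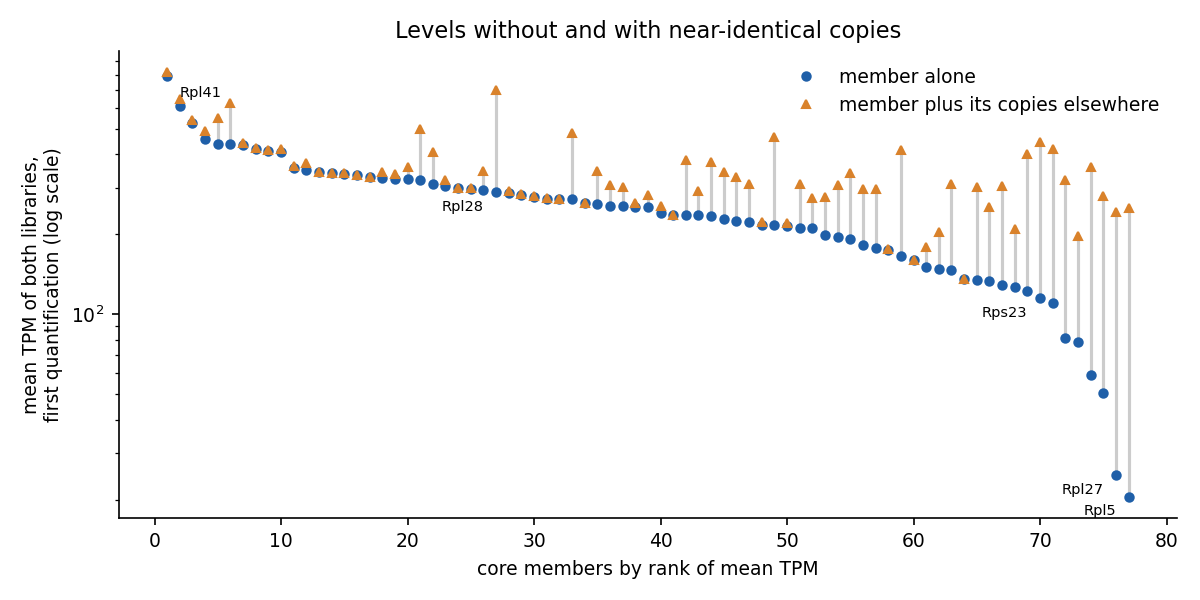
Mean TPM of both libraries on a log scale, first quantification, for each of the 77 core members ranked by their own mean level. Circles show the member alone and triangles the member with its copies elsewhere in the genome added. The grey lines are longest at the right, where Rpl5 and Rpl27 move from the lowest levels to within the range of the other members.

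The files hold a second quantification of the same reads, made against an index of the transcripts, which divided the reads differently. Over 12708 nuclear protein-coding genes its TPM was at the median 1.69 times that of the first. Over the 77 core members the median ratio was 1.95, with a range of 0.734 to 13.1. The family's share of TPM in it was 4.67% and 3.72%, and its share of nuclear protein-coding TPM 7.68% and 5.94%. The core medians were 568.7 and 442.9 TPM, and the ranges 180.3 to 2101 and 134.1 to 1750 TPM. Rpl41 was again the highest, at 2101 and 1750 TPM. The low tail was smaller in the second quantification, with an SD across core members of 0.636 on the log2(TPM + 1) scale.

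The largest gaps between the quantifications were in members of the low tail. Rpl27 was at 358.6 and 293.2 TPM in the second quantification, 13.1 times its first value, and Rpl27a at 662.7 and 557.6 TPM, 10.3 times. Rpl5 was at 224.5 and 166.9 TPM, 9.52 times its first value. Rpl10, at 910.4 and 755.5 TPM, and Rps23, at 791.0 and 602.8 TPM, were 6.80 and 6.05 times higher. In each of these genes the second quantification was far above the first in both libraries. In all, 7 core members were more than 4-fold higher, the other 2 being Rpl37 (5.25 times) and Rpl21 (4.22 times). All 7 belong to the 15 whose copies hold most of the first quantification's TPM.

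The other end was short. Only 2 core members were lower in the second quantification. Rpl36 was at 279.6 and 231.4 TPM in the first and 181.8 and 193.4 TPM in the second, and Rpl19 at 356.6 and 290.4 TPM in the first and 278.2 and 248.7 TPM in the second. Next came Rplp1 (1.00 times), Rps3 (1.02 times) and Rpl17 (1.07 times), whose levels were nearly equal in both. Rpl19 and Rpl17 lie near the exit of the peptide tunnel, and Rps3 is at the entry of the messenger RNA channel.

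Over the 77 core members, the ratio of second to first quantification went with the share of TPM held by copies (Spearman's rho 0.60) more than with the number of copies (0.23) or the gene's length (0.15). Against the share of the member's own words that occur in other genes, the rho was -0.25. These are descriptions over genes that share the same 2 libraries, and the copies' share comes from the same first quantification as the ratio. The 8 core members with no copy had ratios of 1.02 to 2.12 with a median of 1.85. The 44 with 1 to 4 copies ranged from 0.734 to 13.1 and the 25 with 5 or more copies from 0.814 to 9.52, with medians of 2.11 and 2.05. The order of the core members agreed between the quantifications with a rho of 0.60, and of 0.80 with copies added to their members in both. Some copies were divided very differently: Rps23-ps1, Rpl28-ps1 and Rpl10-ps3 were at 0 in both libraries of the second quantification, while Gm15500 (351.3 and 268.0 TPM) and Gm7536 (250.6 and 218.3 TPM) were not. In it, 51 copies had at least 1 TPM in both libraries.

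**Figure D3:**
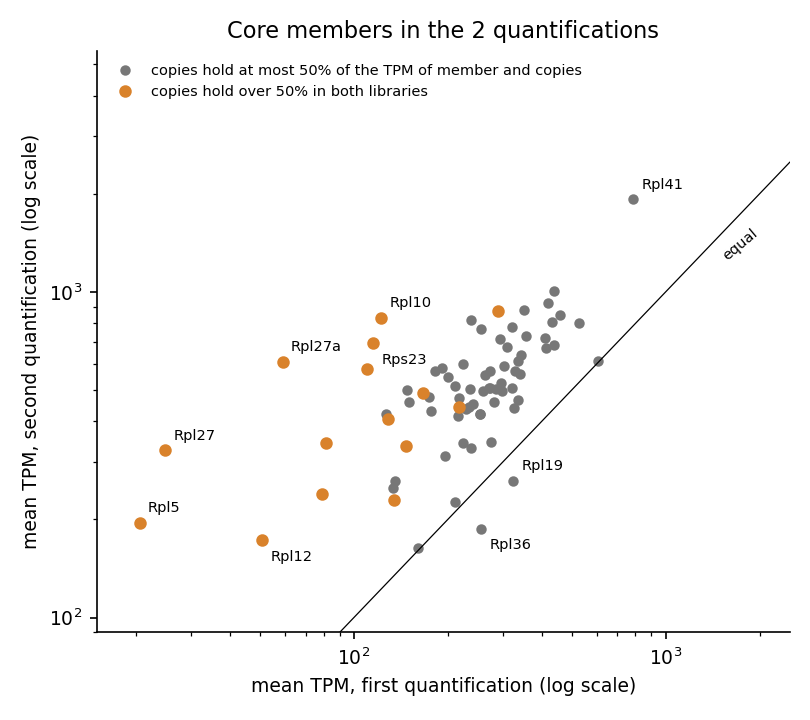
Mean TPM of both libraries in the first (horizontal) and second (vertical) quantification for the 77 core members, both axes on a log scale, with a line of equal values. Orange points are the 15 members whose copies hold over 50% of the TPM of member and copies in both libraries. The points farthest above the line, among them Rpl27, Rpl27a and Rpl5, are orange, and Rpl36 and Rpl19 lie below it.

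The first quantification also reports a posterior SD for each count, an estimate of how uncertain the division of reads is. It was highest, relative to the count, for Rps12 (4.88% and 7.82% in replicates 1 and 2), Rpl10 (6.27% and 6.34%), Rpl27 (5.43% and 6.26%), Rpl36a (3.74% and 4.05%) and Rpl5 (3.01% and 3.50%). All 5 have copies that hold more than 50% of the pair's TPM. For Rpl5 and Rpl27 these values are far below the gap between the quantifications.

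The paralogs ranged from well expressed to undetected. Rps27l, a paralog of Rps27 known as a p53 target, was at 87.5 TPM (replicate 1) and 105.4 TPM (replicate 2), the highest of the 6. On the log2(TPM + 1) scale Rps27l minus Rps27 was -2.44, and -2.05 in the second quantification. The coding sequences of the pair align over 255 of 255 bases without a gap and are 76.1% identical, with no identical run longer than 11 bases, so they share no 31-base word there. Their first 120 coding bases are shown with the 28 differing bases in capitals, because these bases set the reads of the pair apart. They are from the mm10 gene models at chr3:90212522-90213651, minus strand, and chr9:66946086-66949516, plus strand.
Rps27: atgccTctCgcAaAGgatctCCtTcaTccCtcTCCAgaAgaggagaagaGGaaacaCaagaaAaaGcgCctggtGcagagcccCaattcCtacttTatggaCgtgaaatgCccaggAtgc
Rps27l: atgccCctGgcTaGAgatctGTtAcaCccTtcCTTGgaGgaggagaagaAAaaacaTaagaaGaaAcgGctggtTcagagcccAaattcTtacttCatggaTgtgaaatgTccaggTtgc

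Rpl22l1, paralog of the RNA-binding protein Rpl22, was at 67.5 and 61.4 TPM against 152.2 and 118.7 TPM for Rpl22. On the log2(TPM + 1) scale Rpl22l1 minus Rpl22 was -1.05, and -0.69 in the second quantification, the smallest gap of the 6 pairs. Their coding sequences are 73.3% identical over 363 aligned bases. Rpl7l1, a relative of Rpl7 that acts in ribosome assembly, was at 28.0 and 26.6 TPM against 363.9 and 289.4 TPM, with 64.9% identity. Rpl22l1 was thus above Rpl7l1 in both libraries, and both were below their parents.

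Rpl3l and the remaining 2 paralogs are known from other tissues. Rpl3l, the form of Rpl3 that skeletal and heart muscle use, was at 5.05 TPM in replicate 1 (218 counts) and at 0 in replicate 2, where 0 counts allow up to 0.0991 TPM (3 counts, counting error only). The 95% interval of its log2 ratio, from counting error only, lay below -5.63. All 6 skeletal muscle markers were also higher in replicate 1, with a summed level of 1196 TPM against 1.81 TPM, for example Acta1 (skeletal actin) at 425.6 and 0.07 TPM and Ckm (muscle creatine kinase) at 187.8 and 0.08 TPM; their part in the Rpl3l value was not tested. The second quantification gave 13.3 and 0 TPM for Rpl3l. Rpl10l and Rpl39l, known from the testis, had 0 counts in both libraries, which allow up to 0.0969 and 0.155 TPM. The 4 male germ cell markers Prm1, Prm2, Tnp1 and Acrv1 were at 0 in both as well. Their coding sequences are 84.8% and 85.3% identical to those of Rpl10 and Rpl39, the closest of the 6 pairs.

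The libraries were compared gene by gene. Each gene's counts were tested with a two-sided exact binomial test against library sizes scaled by TMM, a factor that centres the typical gene on no change. All genes with at least 10 counts entered, and a gene was called at a Benjamini-Hochberg adjusted p of 0.05. With 1 library on each side the p-value measures counting noise between this pair alone. Of the 81 members tested, 39 were called, 9 higher and 30 lower in replicate 2, and 42 were not. Over all 19801 genes 39.1% were called, 20.7% higher and 18.4% lower, and of 3400 nuclear protein-coding genes at or above the lowest core level 68.1% were called. Of the members tested, 48.1% were called, 11.1% higher and 37.0% lower. The 3400 genes share only a lower limit of level with the core members and are not matched to them. In the second quantification 41 members (50.6%) were called, against 36.7% of all genes there. Only Rpl3l was called with a difference of at least 2-fold, against 10.8% of all genes.

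The core members kept together between the libraries. Their log2 ratio of replicate 2 over replicate 1 had an SD of 0.136, and 74 of 77 (96.1%) lay within 0.25 of the core median. Of the 3400 genes at or above the lowest core level, 64.2% lay within 0.25 of their own median. The quartiles of the core ratios were at -0.10 and 0.01, and those of the 3400 genes at -0.16 and 0.19. The median was -0.04 over the members tested and -0.00 over all genes. This median moves with the scaling. With total counts in place of TMM it was -0.28 (all genes -0.24) and 77 members were called, 76 of them lower. With spike-in counts it was -0.40 (all genes -0.36) and all 81 were called, 80 of them lower. The percentage of all genes called was then 55.8% and 64.1%. A change of scaling moves all ratios by 1 amount, so it leaves the distance between these medians as it is.

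**Figure D4:**
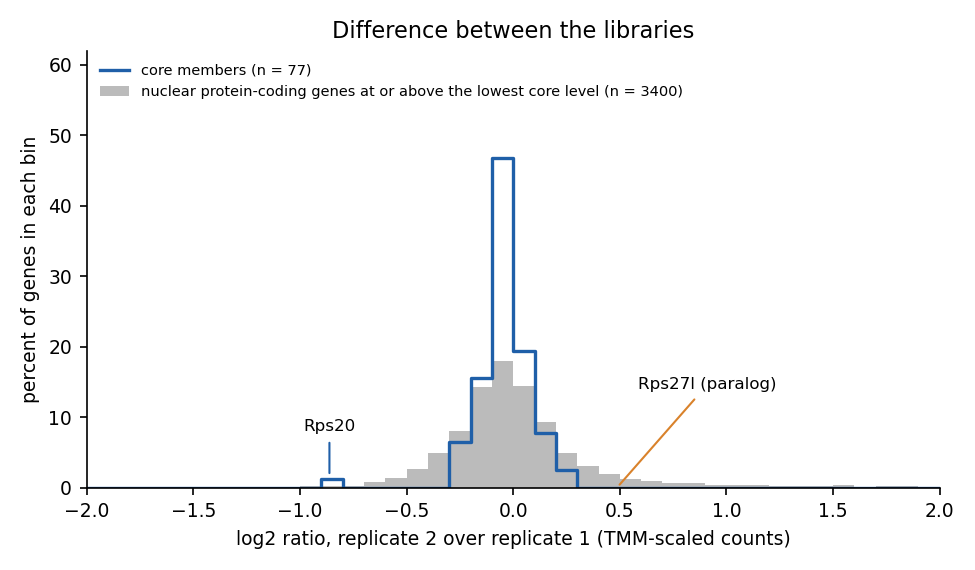
Distribution of the log2 ratio of replicate 2 over replicate 1 (TMM-scaled counts) in bins of the horizontal axis, as percent of genes, for the 77 core members (line) and for 3400 nuclear protein-coding genes at or above the lowest core level (grey bars). Another 266 of the 3400 lie beyond the plotted limits of 2 on either side. The core line is narrow around 0, with Rps20 apart at -0.86, and the paralog Rps27l is marked at 0.49.

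Rps20 was the exception among the core members. Its protein sits in the head of the 40S subunit, and the gene lies at chr4:3831334-3835665 on mm10. It was at 204.6 TPM (replicate 1) and 96.7 TPM (replicate 2), from 3900 and 1819 counts. The log2 ratio was -0.86 (95% interval -0.94 to -0.78, counting error only; exact binomial test, adjusted p = 9.9081e-103), and the next lowest core member was at -0.29. The second quantification gave 639.1 and 279.5 TPM and a ratio of -0.84. Rps20 has 1 copy elsewhere, which was listed at 46.3 and 10.1 TPM. With an assumed biological coefficient of variation of 0.1 in edgeR's exact test, Rps20 and Rpl3l were the 2 members still called (12.9% of all genes were). The only other annotated gene at the locus is a small RNA listed at 0 in both libraries.

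Both main transcripts of Rps20 were lower in replicate 2, and unequally. The 582-base transcript was at 150.2 and 78.7 TPM and the 512-base transcript at 48.4 and 15.45 TPM in the first quantification. In the second they were at 298.6 and 199.5 TPM and at 337.9 and 79.0 TPM. Both are annotated as retained introns. The annotated protein-coding transcript of 3706 bases was at 5.99 and 2.56 TPM.

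The next lowest ratios were those of Rps14 (-0.29), Rpl3 (-0.24), Rpl37 (-0.22) and Rps3 (-0.21), all called. Rpl3, at the peptidyl transferase centre, was at 204.7 and 149.4 TPM, and Rps3 at 182.5 and 137.9 TPM. Rps14 overlaps Ndst1 on the opposite strand, which was at 66.5 and 59.3 TPM, and whether the counting used strand is not given in the sources used here. Rpl37 has a copy listed above it. All 4 were lower in replicate 2 in the second quantification too, where their ratios were -0.30 for Rps14, -0.19 for Rpl3, -0.20 for Rpl37 and -0.21 for Rps3.

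The highest ratio was that of Rps27l, from 1208 and 1434 counts: 0.49 (95% interval 0.37 to 0.60; exact binomial test, adjusted p = 5.654e-17), and 0.42 in the second quantification. It stayed above 0 with total counts (0.25) and spike-ins (0.13), the only member called higher under either. Its parent Rps27 was at -0.06 and was not called. The others among the 5 highest were Rps2 (0.22), Rpl29 (0.20), Rpl7l1 (0.14) and Rpsa (0.13), all called under TMM. Each of these 4 was below 0 with total counts and with spike-ins, so their direction depends on the scaling. Rps2, at the messenger RNA entry, was at 218.9 and 214.2 TPM and Rpsa, the 40S protein also known as the laminin receptor, at 231.2 and 215.7 TPM, so their TPM was nearly level or lower in replicate 2.

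In total RNA a part of the reads of these genes was assigned to transcripts not annotated as protein-coding. The members have 498 annotated transcripts: 232 protein-coding, 176 retained-intron, 65 processed transcripts without a reading frame and 25 targets of nonsense-mediated decay. In the first quantification 16.7% of the members' TPM in replicate 1 and 16.1% in replicate 2 lay on the 3 classes other than protein-coding, here called non-coding although decay targets hold a reading frame, with 8.91% and 8.40% on retained-intron transcripts alone. Most core members had little: 43 of 77 were under 5% and the median was 3.45%, while 13 were above 50%. Rps16 (98.0% and 97.8%), Rps20 (97.1% and 97.4%), Rpl35 (96.6% and 95.3%) and Rps26 (96.0% and 95.9%) were among the highest shares. In each of these genes the libraries gave nearly the same share.

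The quantifications gave different shares for many members. In the second, 32.8% of the members' TPM lay on non-coding classes in either library. For Rps27 the share was 0.977% in replicate 1 by the first and 99.6% by the second. The shares differed by more than 50 percentage points for 15 of 77 core members and by less than 5 points for 34, with a rho of 0.70 over the 77. For Rps27, the first placed 571.1 TPM of replicate 1 on a protein-coding transcript of 345 bases that the second listed at 0, where it gave 560.1 TPM to a retained-intron transcript of 546 bases. The class of transcript is therefore not settled by these files for those members. For Rps16, Rps20, Rpl35, Rps18, Rps23 and Rpl37 the share was above 80% in both libraries of both quantifications. Both take the class from the same annotation, so this does not test the class itself. In Rps16, Rps20 and Rpl35 the leading non-coding transcript in the first quantification was shorter than the listed protein-coding one. The lengths were 518 against 1109 bases in Rps16, 582 against 3706 in Rps20 and 541 against 946 in Rpl35. Whether their reads come from spliced messenger RNA was not tested.

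**Figure D5:**
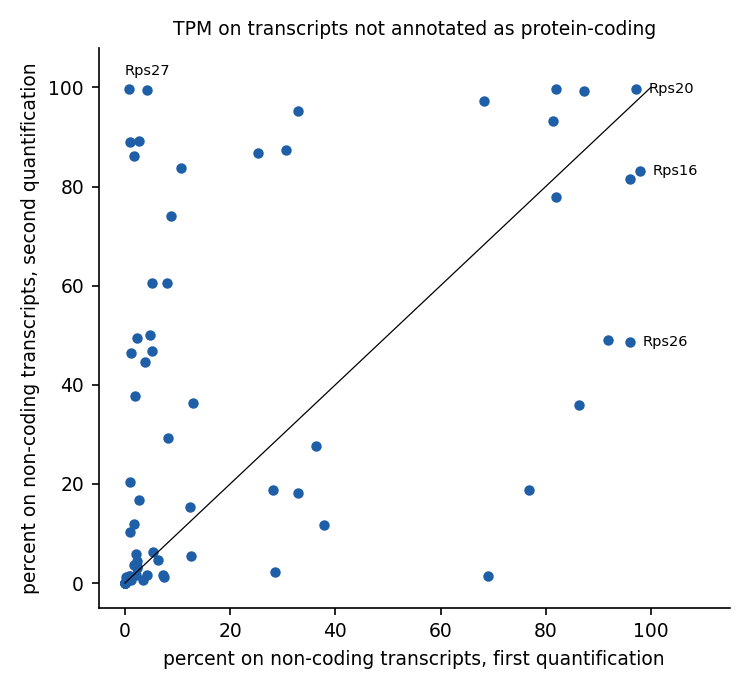
Percent of each core member's TPM on transcripts not annotated as protein-coding, mean of both libraries, in the first (horizontal) and second (vertical) quantification, with a line of equal values. Each point is 1 of the 77 core members. Rps20 and Rps16 are high on both axes, and Rps27 is high only on the vertical axis.

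Between the start and end of 30 core members lie 58 annotated snoRNA genes on the same strand. Their place in introns or exons was not looked up. In the first quantification the median non-coding share was 9.44% in these 30 hosts (range 0 to 97.9%) and 1.66% in the other 47 core members (range 0 to 96.0%). The ranges overlapped over nearly their whole length.

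Of the ribosomal proteins outside the symbol rule, Fau and Rack1 were at levels within the core range. Fau, a ubiquitin-like fusion with a 40S protein, was at 322.7 and 293.0 TPM, and Rack1, the scaffold protein of the 40S head, at 213.5 and 170.85 TPM. Fau was called higher in replicate 2 (log2 ratio 0.09) and Rack1 lower (-0.08), both under TMM; with total counts Fau was at -0.14. Other parts of the translation machinery were counted beside them. Of 15 translation factors, 2 were called higher, 7 lower and 6 not, with a median of -0.08. Among all genes tested, 20.7% were called higher and 18.4% lower. The most abundant of these factors was Eef1a1 (1959 and 1757 TPM), which brings aminoacyl-tRNA to the ribosome. Next were Tpt1 (845.15 and 712.3 TPM) and Eef2 (478.0 and 426.6 TPM), which moves the ribosome along.

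Genes for making ribosomes had a lower median ratio than the ribosomal protein genes, a difference that was not tested. Of 20 ribosome assembly genes, 15 were called lower, 0 higher and 5 not, with a median log2 ratio of -0.27, against -0.04 for the members; of all genes tested, 18.4% were called lower and 20.7% higher. The most abundant were the nucleolar proteins Npm1 (102.0 and 70.1 TPM) and Ncl (77.7 and 53.5 TPM), and the ribosomal DNA transcription factor Ubtf (34.9 and 30.1 TPM, not called). Of 6 non-coding snoRNA host RNAs, which like ribosomal protein messages begin with a pyrimidine tract, 4 were called lower and 2 not, with a median of -0.43; Gas5 was at 103.6 and 68.0 TPM, Snhg5 at 21.9 and 13.7 TPM and Snhg1 at 22.4 and 13.1 TPM. Genes for the mitochondrial ribosome had a median above 0 under TMM. Of 78, 19 were called higher, 6 lower and 53 not, against the same 20.7% and 18.4% of all genes, with a median of 0.08, and the most abundant were Mrpl33 (110.4 and 75.95 TPM, called lower), Mrps21 (84.25 and 78.1 TPM) and Mrpl30 (70.5 and 69.1 TPM). With total counts this median was -0.15, since that scaling lowers all ratios by the same amount. The steroidogenic markers, which mark adrenal cortex cells, were lower in replicate 2 for 6 of 6 genes with a median of -0.66, and the liver markers higher for 6 of 6. Chromaffin markers were lower for 6 of 6 (median -0.34), brown adipocyte markers for 3 of 3 (-0.31), white adipocyte markers for 3 of 3 (-0.10), and erythroid markers for 4 of 6 with 1 higher (-0.26); the part of any of these in these medians was not tested.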

How the data were processed

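Per the labels, the reads refer to the mouse assembly mm10. The first gene tables deposited by the authors hold expected counts and TPM per gene and, per the file headers, the percent of a gene's TPM on each transcript; the second tables deposited by the authors hold estimated counts and TPM per transcript, summed here per gene. Programs, versions and strand setting: not given in the sources used here. Gene classes came from the GENCODE annotation of mm10.

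Counts were rounded and tested for all 19801 annotated genes with at least 10 counts in total by a two-sided exact binomial test (SciPy 1.17.1) on TMM-scaled library sizes (edgeR 4.0.16), with Benjamini-Hochberg adjustment and ratios computed with a prior count of 0.5. Total depth was 35283841 and 35156690 expected counts, of which spike-ins were 0.839% and 0.915%; spike-ins and other entries outside genes stayed out of library sizes. Intervals and floors cover counting error only. The test was checked on simulated data. Alternatives were total counts, spike-ins, DESeq2 1.42.0 size factors, a filter of 1 count, the second quantification, edgeR's exact test with an assumed biological coefficient of variation of 0.1, other scales of TPM, another pseudocount and leaving out either library.

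Genes named are the 10 highest and lowest core members, the paralogs with their parents, the X-linked members, and the 5 at each end of the library ratio, the quantification ratio, the posterior SD and the non-coding share, with 3 genes per further list. Others are said to be chosen later, and a few that the rule names are not reported here. Members and lists were chosen with earlier results of these data known. Promoter sequences are from RefSeq (GRCm38.p6).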

Additional observations from a re-analysis of the deposited data

How the results depend on the processing

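No paired analysis was possible because the study has 1 group of 2 libraries. Of 130 values recomputed under alternatives, 82 were labelled the same. For the ratio of a single gene this meant the same direction and side of the threshold. A number of called members had to stay within a set fold, and a level within the SD of the 2 libraries. A mean of 2 libraries always stays within that SD when 1 is left out, so part of the 82 was fixed in advance. With total counts and with spike-in counts in place of TMM, 77 and 81 members were called, 1 and 1 higher and 76 and 80 lower. Their median log2 ratios were -0.28 and -0.40. Over all genes 55.8% and 64.1% were called, with medians of -0.24 and -0.36. The library sizes themselves set this shift. Under these 2 scalings the ratio of Rpl29 was -0.028 and -0.15, of Rpl7l1 -0.090 and -0.22, of Rps2 -0.014 and -0.14, and of Rpsa -0.10 and -0.23. With an assumed biological coefficient of variation of 0.1, edgeR's exact test called 2 members, 0 higher and 2 lower, and 3 had an unadjusted p under 0.05. That test called 12.9% of all genes. Called members numbered 41 with DESeq2 size factors (39.3% of all genes called), 37 with a filter of 1 count (27.7%) and 41 in the second quantification (36.7%). The family's mean share of TPM, 2.00%, changed to 4.19% (second quantification), to 5.88% (scaled to nuclear protein-coding genes alone), and to 2.66% and 4.77% with copies added (first and second). The core median of 253.0 TPM became 503.5, 746.0, 319.3 and 573.0 TPM in the same order. The SD across core members, 0.887, was 0.889 to 0.890 without either library, 0.636 in the second quantification, 0.895 with a pseudocount of 0.1, and 0.468 and 0.523 with copies added. The 60S minus 40S difference of -0.19 was -0.19 to -0.20 without either library, -0.0073 in the second quantification, and -0.15 and 0.052 with copies added. The non-coding share of 16.4% was 32.8% in the second quantification. Adding copies was chosen after seeing the data. The cause was not tested for the changes between quantifications.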
